A study of Mus musculus with 9 samples.

Results

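Glycogen is the liver's store of glucose, and the 9 genes described here encode enzymes that build it or break it down and the phosphatase subunits that set the balance. They were chosen by name: Gys1, Gys2, Gyg, Gbe1, Ugp2, Pygb, Pygl, Ppp1r3b and Ppp1r3c, each matched by its gene symbol to 1 row of a table of 30519 transcripts. All 9 were found. The values are liver RNA levels in 4 miR-122 knockout mice (KO) and 5 floxed littermates without the knockout (WT), all 6 weeks old. The KO group held 1 female (KO 1) and 3 males (KO 2 to KO 4), and the WT group held 3 females (WT 1 to WT 3) and 2 males (WT 4 and WT 5). RNA was polyA-selected from pulverised frozen liver powder that had not been crosslinked. Not given in the sources used here were the Cre line, the strain, the feeding state and the hour of collection. The series asked which transcripts change when miR-122, a microRNA of hepatocytes, is missing.

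UDP-glucose pyrophosphorylase (Ugp2) makes the activated glucose, glycogenin (Gyg) primes a new particle, glycogen synthase extends its chains and the branching enzyme (Gbe1) adds branch points. Glycogen phosphorylase releases glucose 1-phosphate from the chain ends. Synthase and phosphorylase exist as isozymes from separate genes: Gys2 and Pygl are the liver forms, Gys1 is the form of muscle and many other tissues, and Pygb is the form named for brain. Ppp1r3b and Ppp1r3c bring protein phosphatase 1 to glycogen, where it activates synthase and inactivates phosphorylase. Gys1 is a published target of miR-122.

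Levels are the authors' normalised signal, which scales with reads per transcript length, so levels of different genes can be set side by side. In units of M (mega), the summed signal of a library lay between 0.711 and 0.869 in KO and between 0.873 and 1.17 in WT, so equal totals for every library served as an alternative scale. About 16.5 M reads per library, a geometric mean summed over transcripts, fell on the transcripts with a deposited coefficient. WT 3 is labelled female although its column is named male. Its Y-linked Ddx3y, Uty and Eif2s3y lay at 0.0422, 0 and 0.114, against 2.36 or more for each of them in every male library, so the label was kept. miR-122 itself was not analysed here, and genotype was taken from the labels. The table holds 1 transcript for each of these genes, so a difference can be of 1 isoform. In bulk liver, fewer cells of a type and less RNA per cell cannot be told apart.

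The 2 isozymes that are not the liver's own forms, Gys1 and Pygb, rose in KO liver, while Pygl, Gbe1, Ugp2 and Ppp1r3b fell. Gys2, Ppp1r3c and Gyg did not pass the test. Thus 2 of the 9 genes were called higher and 4 lower by limma at a Benjamini-Hochberg adjusted p of 0.05. Of all 10950 transcripts tested, 35.9% were called, 21.4% higher and 14.5% lower. The median log2 fold change was -0.48 over the 9 genes and 0.03 over all transcripts tested. Every log2 fold change given here is KO minus WT on log2(value + 1), which understates the change of low transcripts, and plain folds are ratios of mean levels. With equal totals, 3 of the 9 were higher (Pygb, Gys1 and Gyg) and 1 lower (Gbe1), against 45.0% and 2.72% of all transcripts and 47.7% in either direction. That scale moved the median of all transcripts from 0.03 to 0.36, and the median of the 9 genes lay at -0.09. KO and WT libraries did not overlap for 5 of the 9 genes, 3 with KO above WT and 2 with KO below, against 19.0% and 12.1% of all transcripts and 31.1% in either direction.

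**Figure D1:**
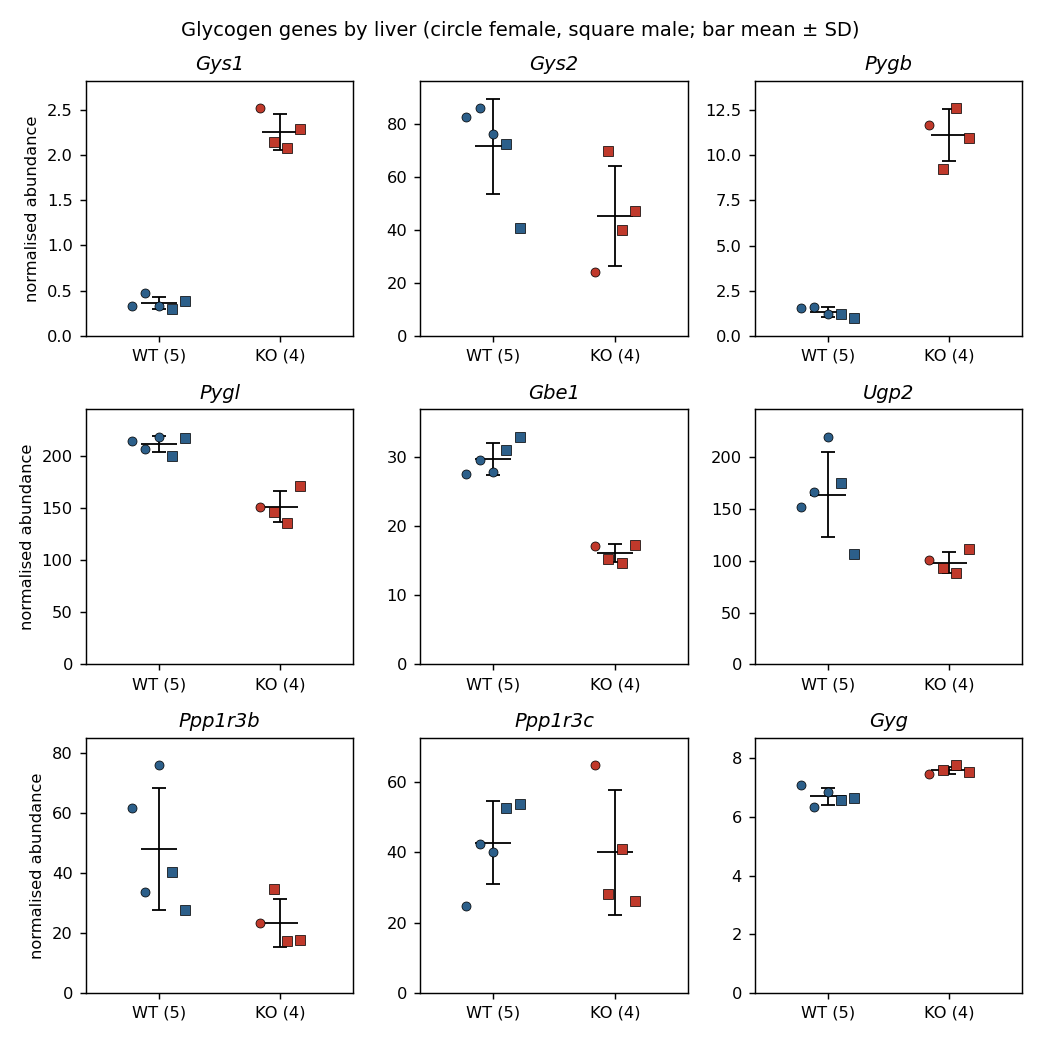
Normalised level of each of the 9 glycogen genes (linear axes from 0) in every library by genotype, with circles for females, squares for males and bars for the mean and SD. KO and WT points are separate for Gys1, Pygb, Pygl, Gbe1 and Gyg and overlap for Gys2, Ugp2, Ppp1r3b and Ppp1r3c.

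Glycogen synthase lengthens the chains, and Gys1 encodes its widely expressed form. It lay at 2.52 in the KO female and at 2.14, 2.08 and 2.29 in the KO males. In WT livers it lay at 0.336, 0.476 and 0.336 in the females and at 0.300 and 0.386 in the males. Every KO library lay far above every WT library, in both sexes. The means were 2.26 ± 0.195 (SD, n = 4) and 0.367 ± 0.0682 (SD, n = 5), a 6.15-fold difference, with a log2 fold change of 1.25 (SE 0.095, limma adjusted p = 1.51e-05). Gys1 was the lowest of the 9 genes in both genotypes, and its geometric mean of 46.7 reads per library was the smallest depth among them. Its transcript (ENSMUST00000003964) spans 45434844 to 45456619 on the plus strand of chromosome 7 in GRCm38, and 6 transcripts are annotated for the gene.

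Gys2, the liver synthase, was far more abundant and far more variable. It lay at 24.3 in the KO female and at 69.6, 39.8 and 47.1 in the KO males, and at 82.7, 85.9, 76.2, 72.3 and 40.9 in WT 1 to WT 5. Only KO 1 and KO 3 lay below the lowest WT library, WT 5, and KO 2 lay close to WT 4, so the groups overlapped. The means were 45.2 ± 18.8 (SD, n = 4) in KO and 71.6 ± 18.0 (SD, n = 5) in WT. The log2 fold change of -0.70 did not pass the test (95% interval -1.38 to -0.03, limma adjusted p = 0.098). Its value was -0.94 (adjusted p = 0.0355) without KO 2 and -0.89 (adjusted p = 0.0290) without WT 5, so 1 library on either side decided the call. Among males alone it was -0.10 (limma adjusted p = 0.847). The transcript (ENSMUST00000032371) spans chromosome 6, 142422613 to 142473109, on the minus strand.

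Both phosphorylases passed the test, in opposite directions. Pygb lay at 11.7 in the KO female and at 9.22, 12.6 and 10.9 in the KO males, and at 1.55, 1.63, 1.21, 1.20 and 0.974 in WT 1 to WT 5. The lowest KO liver stood well above the highest WT liver. Mean levels were 11.1 ± 1.42 (SD, n = 4) and 1.31 ± 0.269 (SD, n = 5), an 8.47-fold difference, with a log2 fold change of 2.39 (SE 0.116, limma adjusted p = 1.17e-06). By log2 fold change Pygb ranked 56 from the top of 10950 transcripts, and Gys1 ranked 377. These ranks hold for an added 1. With 0.1 or 0.5 added instead, the log2 fold change was 3.00 or 2.68 for Pygb and 2.34 or 1.67 for Gys1. The Pygb transcript (ENSMUST00000045441) spans chromosome 2, 150786735 to 150831758, on the plus strand, with 5 annotated transcripts for the gene.

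Pygl, the liver phosphorylase and the most abundant of the 9 genes in both genotypes, lay at 151, 146, 136 and 171 in KO 1 to KO 4. It lay at 214, 206, 218, 200.1 and 217 in WT 1 to WT 5. Both groups were tight, and every KO library lay below every WT library. The means of 151 ± 14.8 (SD, n = 4) and 211 ± 7.60 (SD, n = 5) differed 1.40-fold, with a log2 fold change of -0.48 (SE 0.080, limma adjusted p = 0.0014). With equal totals the value was -0.09 (limma adjusted p = 0.505) and the call was lost. Relative to the median of all transcripts the change was -0.51 on the deposited scale and -0.45 with equal totals. The transcript (ENSMUST00000071250) spans chromosome 12, 70190811 to 70227683, on the minus strand.

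The promoter sequences of these isozyme genes are shown because Gys1 and Pygb rose together while Pygl fell. They are RefSeq windows (GRCm38.p6) of 250 bases before the start that RefSeq annotates, written 5′ to 3′ on the gene's strand. Capitals mark matches to the GC box GGGCGG, the E-box CACGTG, the CCAAT box CCAAT and the TATA box TATAAA, each searched on both strands. The windows are chr7:45434589-45434838 (plus) for Gys1, chr2:150786546-150786795 (plus) for Pygb and chr12:70227684-70227933 (minus) for Pygl. RefSeq and the annotation of the measured transcripts place some starts differently: the last 61 bases of the Pygb window lie inside its measured transcript, the Gys1 window ends 5 bases before its transcript, and the Pygl window adjoins its own.
Gys1: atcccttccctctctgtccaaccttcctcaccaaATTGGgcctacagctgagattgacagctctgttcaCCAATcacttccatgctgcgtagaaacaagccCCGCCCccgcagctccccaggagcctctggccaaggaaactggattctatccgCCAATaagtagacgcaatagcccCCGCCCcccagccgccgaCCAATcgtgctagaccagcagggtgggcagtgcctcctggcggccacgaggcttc
Pygb: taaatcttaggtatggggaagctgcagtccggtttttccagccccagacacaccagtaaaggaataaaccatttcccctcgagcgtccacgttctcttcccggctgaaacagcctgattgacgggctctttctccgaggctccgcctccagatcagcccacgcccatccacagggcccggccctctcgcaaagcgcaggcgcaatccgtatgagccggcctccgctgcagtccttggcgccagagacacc
Pygl: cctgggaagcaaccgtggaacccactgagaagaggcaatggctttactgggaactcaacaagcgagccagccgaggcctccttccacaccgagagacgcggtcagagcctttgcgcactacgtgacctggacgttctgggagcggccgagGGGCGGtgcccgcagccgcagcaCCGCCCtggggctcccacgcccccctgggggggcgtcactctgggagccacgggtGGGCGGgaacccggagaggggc

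The 3 windows held different matches. The Gys1 window held 4 CCAAT boxes and 2 GC boxes, the Pygl window held 3 GC boxes, and the Pygb window held no match to any of the 4 motifs. Among 32851 windows of the same length, 33.8% held a CCAAT box and 0.840% held at least 4, while 32.7% held a GC box and 8.47% at least 3. GC content was 60.0% for Gys1, 60.0% for Pygb and 69.2% for Pygl, against a median of 52.4%. Of the 9 genes, 7 had a RefSeq window, and Gys2 and Ppp1r3b had none. Ppp1r3c held the only E-box among the 7 genes, a match that 6.02% of all windows held, and no window of the 7 held TATAAA, found in 12.4% of all. A match of letters is a description of sequence, not of binding.

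Within a library, the ratio of isozymes does not depend on the library scale. The log2 ratio of Gys1 to Gys2 was -4.23 ± 0.72 (SD, n = 4) in KO and -7.58 ± 0.51 (SD, n = 5) in WT, a difference of 3.35 or 10.2-fold (exact two-sided permutation p = 0.0159, adjusted over 4 ratios 0.0317). For Pygb to Pygl it was -3.77 ± 0.26 (SD, n = 4) in KO and -7.35 ± 0.32 (SD, n = 5) in WT, a difference of 3.58 or 12.0-fold (exact two-sided permutation p = 0.0159, adjusted 0.0317). The groups did not overlap in either ratio, and 0.0159 is the smallest p that 4 against 5 libraries can give.

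Even so, the liver forms supplied most of the RNA of each enzyme in every KO library. Gys1 made up 9.38% of the summed synthase level in the KO female and 2.98%, 4.96% and 4.63% in the KO males, against 0.404% to 0.935% in WT. Pygb made up 7.17% of the summed phosphorylase level in the KO female and 5.94%, 8.48% and 6.02% in the KO males, against 0.448% to 0.782% in WT. The highest Gys1 share, in the KO female, went with the lowest Gys2 level of any library. Summed Gys1 and Gys2 came to 47.5 ± 18.7 (SD, n = 4) in KO and 71.9 ± 18.0 (SD, n = 5) in WT, with overlapping groups. Summed Pygb and Pygl came to 162 ± 14.5 (SD, n = 4) and 212 ± 7.54 (SD, n = 5), with KO below WT in every library. On that scale the mean of Pygb was 9.80 higher and that of Pygl 60.0 lower in KO. With equal totals the summed phosphorylases were 191 ± 8.60 (SD, n = 4) and 191 ± 22.0 (SD, n = 5), and the groups overlapped. The log2 ratio of summed synthases to summed phosphorylases was -1.86 ± 0.61 (SD, n = 4) in KO and -1.61 ± 0.45 (SD, n = 5) in WT, a difference of -0.25 that did not pass (exact two-sided permutation p = 0.460).

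**Figure D2:**
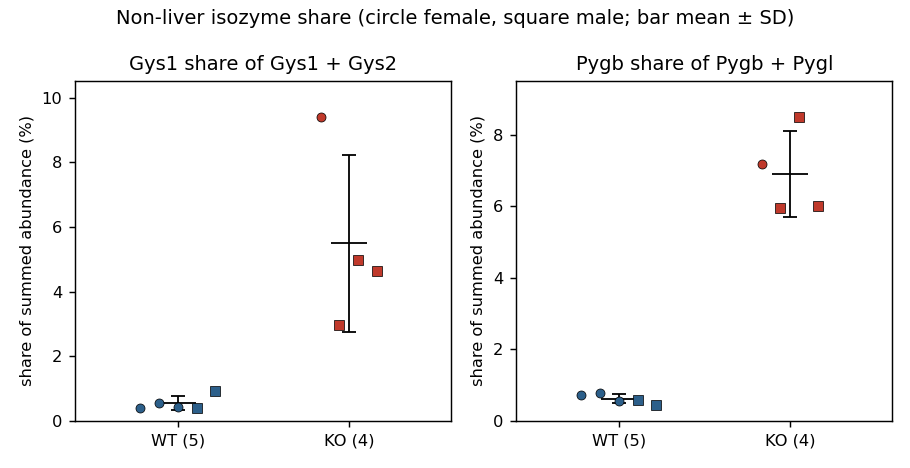
Share of the synthase level from Gys1 and of the phosphorylase level from Pygb, in percent, with a circle for each female, a square for each male and bars for the mean and SD of each genotype. The 4 KO livers lie between 2.98% and 9.38% for Gys1 and between 5.94% and 8.48% for Pygb, and every WT liver lies under 1%.

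Of the enzymes that supply, prime and branch the chains, Gbe1 and Ugp2 fell and Gyg did not pass the test. Gbe1, the branching enzyme, lay at 17.1, 15.3, 14.7 and 17.2 in KO 1 to KO 4 and at 27.4, 29.4, 27.7, 30.9 and 32.8 in WT 1 to WT 5. No KO library came near the lowest WT library. The means of 16.1 ± 1.27 (SD, n = 4) and 29.7 ± 2.27 (SD, n = 5) differed 1.85-fold, with a log2 fold change of -0.85 (SE 0.081, limma adjusted p = 6.25e-05). It was the gene among the 4 called lower that was called in all 22 alternatives run, with -0.46 and an adjusted p of 0.0032 at equal totals. The transcript (ENSMUST00000163832) spans chromosome 16, 70313949 to 70569716, on the plus strand, with 7 annotated for the gene.

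Ugp2, which makes UDP-glucose, lay at 100.2, 92.9, 88.6 and 111 in KO 1 to KO 4 and at 152, 166, 219, 175 and 106 in WT 1 to WT 5. The groups overlapped through WT 5, which lay below KO 4. The means of 98.2 ± 9.90 (SD, n = 4) and 164 ± 40.9 (SD, n = 5) differed 1.67-fold, with a log2 fold change of -0.70 (SE 0.181, limma adjusted p = 0.0141). The call was lost with equal totals (-0.30, adjusted p = 0.248) and among males alone (-0.49, adjusted p = 0.183). The transcript (ENSMUST00000060895) spans chromosome 11, 21321673 to 21371201, on the minus strand.

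Gyg, the primer of the particle, lay at 7.47, 7.58, 7.76 and 7.54 in KO 1 to KO 4 and at 7.09, 6.33, 6.86, 6.59 and 6.65 in WT 1 to WT 5. All KO libraries lay above all WT libraries, by a narrow margin. The means of 7.59 ± 0.123 (SD, n = 4) and 6.70 ± 0.288 (SD, n = 5) differed 1.13-fold, and the log2 fold change of 0.16 did not pass (95% interval 0.02 to 0.30, limma adjusted p = 0.0735). With equal totals it was 0.51 (limma adjusted p = 0.0050) and was called. Relative to the median of all transcripts it was 0.13 on the deposited scale and 0.15 with equal totals. The transcript (ENSMUST00000178328) spans chromosome 3, 20122087 to 20155096, on the minus strand, and had a geometric mean of 178.3 reads.

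The phosphatase-targeting subunits varied widely between livers. Ppp1r3b, the form best known from liver, lay at 23.4 in the KO female and at 34.6, 17.2 and 17.8 in the KO males, and at 61.9, 33.7, 76.0, 40.5 and 27.7 in WT 1 to WT 5. KO 2 lay above WT 2 and WT 5, so the groups overlapped. The means of 23.3 ± 8.05 (SD, n = 4) and 48.0 ± 20.3 (SD, n = 5) differed 2.06-fold, with a log2 fold change of -0.97 (SE 0.311, limma adjusted p = 0.0357). This call was lost in 11 of 22 alternatives, among them equal totals (-0.58, adjusted p = 0.175), sex as a covariate (adjusted p = 0.0751) and males alone (-0.58, adjusted p = 0.256). It was also lost without KO 1, KO 3, KO 4, WT 1, WT 3 or WT 4, each left out in turn, with adjusted p between 0.0536 and 0.0986. The transcript (ENSMUST00000070481) spans chromosome 8, 35375741 to 35388139, on the plus strand.

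Ppp1r3c lay at 64.8 in the KO female and at 28.1, 41.0 and 26.0 in the KO males. In WT it lay at 24.7, 42.2 and 40.2 in the females and at 52.7 and 53.9 in the males. The KO female was the highest library of all and WT 1, also a female, the lowest. The means of 40.0 ± 17.8 (SD, n = 4) and 42.7 ± 11.8 (SD, n = 5) gave a log2 fold change of -0.14 (95% interval -0.80 to 0.53, limma adjusted p = 0.746), and of 0.25 (adjusted p = 0.493) with equal totals. Among males alone, 3 KO against 2 WT, all KO lay below both WT and the value was -0.76 (limma adjusted p = 0.0479). The log2 ratio of Ppp1r3c to Ppp1r3b differed by 0.86 between KO and WT (exact two-sided permutation p = 0.206, adjusted over 4 ratios 0.275). The transcript (ENSMUST00000087321) spans chromosome 19, 36731731 to 36736653, on the minus strand, and is the 1 annotated for the gene.

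**Figure D3:**
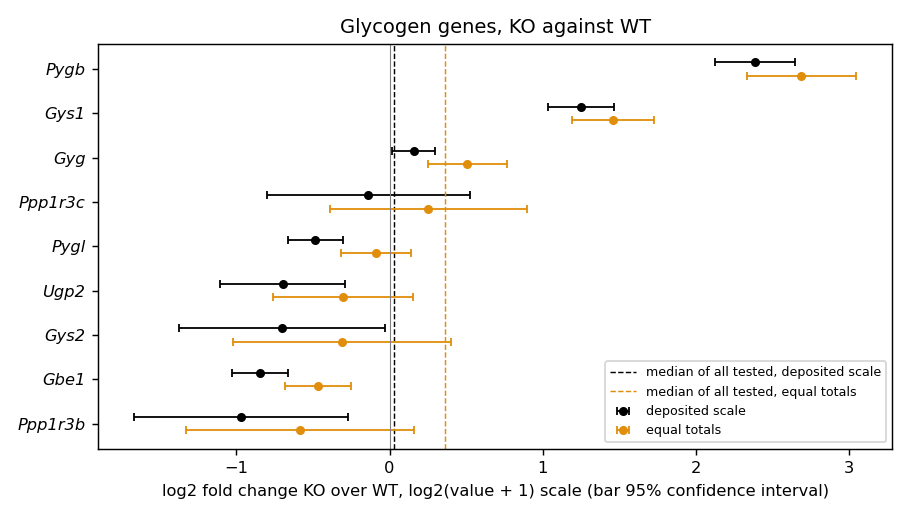
Log2 fold change (KO minus WT, on log2(value + 1)) of the 9 genes with its 95% interval, on the deposited scale and with equal totals, and dashed lines at the median of all transcripts on each scale. On both scales Pygb, Gys1 and Gyg lie to the right of 0, and Gbe1, Ppp1r3b, Gys2, Ugp2 and Pygl to the left. Ppp1r3c crosses from -0.14 to 0.25 with equal totals.

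Sex and genotype were not balanced, and the sex term of a fit with both gave adjusted p of 0.692 or more for all 9 genes (limma). A term for sex by genotype, added after the values were seen, was 1.61 for Gys2 (limma adjusted p = 0.285) and -1.64 for Ppp1r3c (limma adjusted p = 0.259). Neither passed, and both rest on 1 KO female, which had the lowest Gys2 and the highest Ppp1r3c level of all 9 livers. Of the called genes, Gys1 (1.24, adjusted p = 0.0057), Pygb (2.50, adjusted p = 0.00083) and Gbe1 (-0.98, adjusted p = 0.0046) passed among males alone. Pygl was -0.47 there (limma adjusted p = 0.0597).

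The order of levels showed where the isozymes sit in the pathway's RNA. In WT liver it ran Pygl, Ugp2, Gys2, Ppp1r3b, Ppp1r3c, Gbe1, Gyg, Pygb and Gys1. The ranges of Pygl and Ugp2, of Gys2 and Ppp1r3b, of Ppp1r3b and Ppp1r3c, and of Ppp1r3c and Gbe1 overlapped between neighbours. In KO liver it ran Pygl, Ugp2, Gys2, Ppp1r3c, Ppp1r3b, Gbe1, Pygb, Gyg and Gys1, with overlap only of Gys2 with Ppp1r3c and of Ppp1r3c with Ppp1r3b among neighbours. Pygb stood above Gyg in 4 of 4 KO libraries and below it in 5 of 5 WT libraries. The summed level of the 9 genes was 395 ± 23.7 (SD, n = 4) in KO and 575 ± 63.7 (SD, n = 5) in WT without overlap, and 467 ± 33.4 against 520 ± 87.2 with overlap at equal totals.

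Among other genes of glycogen and glucose 6-phosphate metabolism, the share called was close to that of all transcripts. Of 34 listed, 22 were abundant enough to test, and 4 were higher, 4 lower and 14 not called by limma, where 21.4% of all transcripts were higher and 14.5% lower. Their median log2 fold change was -0.01. With equal totals 11 were higher and none lower by limma, where 45.0% of all transcripts were higher and 2.72% lower, and the median was 0.34 against 0.36 for all transcripts. At an unadjusted p of 0.05, 1 was lower on that scale (Slc37a4), and the authors' deposited table called 3 higher and 4 lower of 30. The largest increase among the 22 was that of G6pc3, the glucose 6-phosphatase found outside liver as well, at 5.88 ± 0.842 (SD, n = 4) in KO and 1.32 ± 0.918 (SD, n = 5) in WT, 4.45-fold higher (limma adjusted p = 0.0013). It did not pass in the authors' deposited table, which gave q = 0.0805. Stbd1, which tethers glycogen to membranes, rose from 46.9 ± 4.39 (SD, n = 5) to 74.1 ± 15.4 (SD, n = 4), with a limma adjusted p of 0.0048. The phosphatase catalytic subunits Ppp1cc (log2 fold change 0.59, limma adjusted p = 0.0091) and Ppp1ca (0.46, adjusted p = 0.00083) also rose.

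Slc37a4, the glucose 6-phosphate carrier of the endoplasmic reticulum, fell from 120 ± 33.0 (SD, n = 5) to 60.1 ± 12.0 (SD, n = 4), 2.00-fold (limma adjusted p = 0.0080). Its log2 fold change was -0.96, and -0.86 with sex as a covariate (limma adjusted p = 0.0186). The WT females lay at 125 to 154 and the WT males at 74.3 and 101. Among males alone the value was -0.44 and did not pass (limma adjusted p = 0.167). The phosphoglucomutase family member Pgm2 (log2 fold change -0.45, limma adjusted p = 0.0027) and the glycogen phosphatase laforin, Epm2a (-0.36, adjusted p = 0.0304), fell as well. None of the 4 genes called lower passed with equal totals (limma adjusted p between 0.0880 and 0.788), and Epm2a also failed without KO 1, KO 4, WT 3 or WT 4 (adjusted p between 0.0547 and 0.0800). G6pc, the liver glucose 6-phosphatase, lay at 273 ± 80.1 (SD, n = 4) in KO and 268 ± 118 (SD, n = 5) in WT. Among males alone its 3 KO libraries (269 to 332) lay above both WT libraries (97.8 and 226), with a log2 fold change of 1.05 that did not pass (limma adjusted p = 0.0824). The glucose transporter Slc2a2 had a log2 fold change of -0.41 (limma adjusted p = 0.173), which became -0.60 (adjusted p = 0.0079) without WT 5. The value for Slc2a2 was -0.02 with equal totals (limma adjusted p = 0.964) and -0.04 among males alone (adjusted p = 0.926). With sex as a covariate it was -0.29 (limma adjusted p = 0.333). Pygm, the muscle phosphorylase, was at or below 0.833 in every library. G6pc and Slc2a2 were named after their values were seen.

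**Figure D4:**
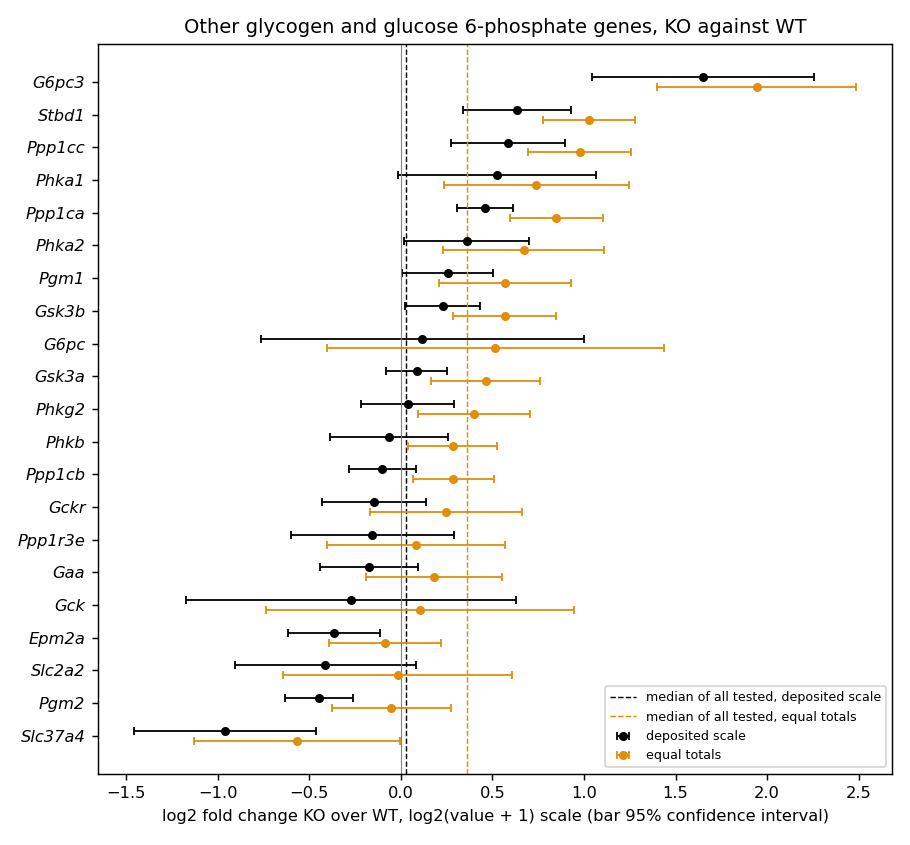
Log2 fold change (KO minus WT, on log2(value + 1)) of 21 of the 22 tested pathway genes with 95% intervals, on the deposited scale and with equal totals, and dashed lines at the median of all transcripts on each. Of the genes plotted, 4 were higher and 3 lower by limma on the deposited scale, and each of the 21 lies further to the right with equal totals.

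WT 5 stood low for several of these genes. It was the lowest WT library for 4 of the 9 genes (Gys2, Pygb, Ugp2 and Ppp1r3b) and for 9 of the 22 pathway genes, with G6pc at 97.8, Slc37a4 at 74.3 and Slc2a2 at 81.0. It was also the highest WT library for Gbe1 and Ppp1r3c and had the largest summed signal. Among KO libraries, KO 3 was the lowest for 5 of the 9 genes and KO 1 for 9 of the 22 pathway genes. The differences of Gys1, Pygb, Pygl, Gbe1 and Ugp2 passed the test with each library left out in turn.

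Summed markers of cholangiocytes, stellate cells and macrophages lay higher in every KO than in any WT library, and the sums of the other cell types overlapped. The counts of called markers stand against 21.4% higher and 14.5% lower among all transcripts. Summed cholangiocyte markers lay at 583 to 947 in KO and 37.5 to 63.0 in WT, with 6 of 7 tested called higher by limma and Cftr under 0.5 in all 9 libraries. Stellate cell and fibroblast markers lay at 301 to 355 in KO and 128 to 229 in WT (9 of 10 higher), and macrophage markers at 390 to 454 and 208 to 270 (8 of 8 higher). Hepatocyte markers lay at 53920 to 70979 and 48863 to 116608 (1 of 10 higher and 2 lower), and endothelial markers at 61.6 to 78.1 and 58.6 to 84.3 (1 of 7 higher and 1 lower). Neutrophil markers lay at 58.3 to 129 and 11.5 to 67.0 (2 of 3 higher), lymphocyte markers at 8.20 to 14.1 and 3.99 to 8.41 (1 of 2 higher) and erythroid markers at 907 to 1863 and 726 to 1231 (1 of 3 higher). Skeletal muscle markers lay at 1.02 to 1.75 in KO. In WT they lay at 8.20 in WT 1 and at 0.296 to 1.08 in the other WT libraries. Myh4 and Tnnt3 were at 0 in every library, KO or WT, except WT 1. None of the muscle markers was abundant enough to test. Brain and nerve markers lay at 3.77 to 6.76 and 3.69 to 6.15, mostly Syt1, and the 1 tested was not called. Below the abundance tested, Mbp lay at 0.737 ± 0.0574 (SD, n = 4) in KO and 0.210 ± 0.0743 (SD, n = 5) in WT and Tubb3 at 0.152 ± 0.0308 and 0.0136 ± 0.0304, both with KO above WT in every library. No marker was at 0 in all 9 libraries. The part of other cell types in the rise of Gys1 and Pygb was not tested.

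By the distance between standardised log2 levels over the 9 libraries, the transcripts most like Gys1 were Pls1 (0.155), Clic1 (0.263) and Golm1 (0.263). Those most like Pygb were Bicc1 (0.173), Golm1 (0.185) and Klf6 (0.261). The median distance of all 10123 transcripts compared was 3.80 from each. Golm1 was among the nearest 3 of both genes, at 10.8 ± 1.15 (SD, n = 4) in KO and 1.35 ± 0.199 (SD, n = 5) in WT. The nearest to Pygl were Mocs2 (0.637), Trmt10c (0.639) and Slc31a1 (0.647). Gys2 had the nearest transcripts Gltscr2 (0.542), Sirt3 (0.755) and Fam76a (0.788), which like it were lowest in the KO female and, among WT, in WT 5.

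The authors' deposited table also called 2 of the 9 genes higher and 4 lower at q of 0.05, and these were the same 6 genes. Of 13540 transcripts in the authors' deposited table, 25.2% were called, 13.6% higher and 11.6% lower. In the authors' deposited table the log2 coefficient was 2.56 for Gys1 (q = 5.37e-07) and 3.05 for Pygb (q = 2.22e-74). It was -0.93 for Gbe1, -0.53 for Pygl, -0.75 for Ugp2 and -1.04 for Ppp1r3b in the authors' deposited table. These come from a natural log scale without the added 1, so for low genes they are not on the scale of the limma values.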

How the data were processed

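The authors deposited 1 table of liver transcripts, made with kallisto and sleuth on mm10 per the submitters' processing notes. Not given in the sources used here: versions and the choice of transcript. Its library columns were treated as the authors' normalised signal, since totals differ and are not those of TPM, which the planned design had foreseen; the test planned for such values was used. The authors' coefficient (WT minus KO) and mean level of each transcript are natural log values, with the authors' p-value and q-value beside them. The sign of the coefficient was turned and its base changed to log2. The depth behind a gene is the geometric mean of its reads, from the deposited mean level.

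The 10950 transcripts whose mean level reached 1 entered limma (version 3.58.1, R 4.3.3) as log2(value + 1). Genotype was the single term, the prior variance followed abundance, and p-values were adjusted by Benjamini-Hochberg at 0.05. Ratios within a library were compared by exact two-sided permutation, adjusted over 4 ratios. Annotation is GENCODE M21 (GRCm38). Each animal was 1 replicate. The limma p-values set the genotype difference against the variation between animals, with a prior variance drawn from all transcripts tested. The exact p-values come from reassigning the genotype labels among the animals. Simulated data with known changes and independent noise were used to test the limma step. The simulation held no shift of library totals and no sex effect, so it cannot speak to either. The 9 genes and all lists were chosen with earlier results of these data known. Named genes were the 9, up to 4 called pathway genes per direction and the 3 nearest patterns of 4 isozymes. The Ppp1ca symbol has 2 gene identifiers with identical values and was counted once. Alternatives were other scales, pseudocounts, filters, thresholds, variance priors, sex as a covariate, males alone, a replicate block, leaving out each library and the authors' test. The planned search for seed matches was not run, and some genes of the lists are counted but not reported here by name.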

Additional observations from a re-analysis of the deposited data

Results flagged for a closer look

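Of 26 groups of values examined for a sample far from the others, 1 had such a sample, where chance gives about 1 in 20. In WT 5, a male, the log2 ratio of summed synthases to summed phosphorylases was -2.40, while the other WT libraries lay between -1.52 and -1.27. The KO female had a lower ratio, -2.60. In WT 5, Gys2 was at 40.9, the lowest WT value, and Pygl was at 217.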

How the results depend on the processing

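Of 197 values of the 9 genes under the alternatives, 174 kept their direction and their side of the threshold. With a mean of at least 5 as the filter, 1 of the 9 genes was called higher, since Gys1 fell below it. The number called lower went from 4 to 1 with equal totals (Gbe1) and to 2 at an adjusted p of 0.01 (Gbe1 and Pygl). Among males alone it was also 2, Gbe1 and Ppp1r3c, and Ppp1r3c was not among the 4. Of the pathway genes, 11 were higher and 0 lower with equal totals by limma, and 2 higher and 1 lower among males alone. With equal totals, 45.0% of all transcripts were higher and 2.72% lower. For males alone, the stricter threshold, the replicate block and libraries left out, the share of all transcripts called was not counted. Whether the 9 genes or the pathway genes lost more calls there than other transcripts was not tested. Among males alone the isozyme ratios differed by 2.77 (Gys1 to Gys2) and 3.79 (Pygb to Pygl), where no exact p can be below 0.2, and the summed ratio turned to 0.33 and Ppp1r3c to Ppp1r3b to -0.17. Leaving out 1 library gave 2 to 2 genes higher and 3 to 5 lower, and 4 to 5 pathway genes higher and 3 to 5 lower. The ratio differences were then 3.03 to 3.62, 3.47 to 3.68, -0.50 to 0.000436 and 0.56 to 1.20 in the same order. The adjusted exact p was 0.0571 to 0.0714 for the first pair. KO still lay above WT in every library for that pair, so each unadjusted p was the smallest that the remaining libraries can give. Direction turned for Ppp1r3c (0.25 with equal totals, -0.40 to 0.0300 with 1 library left out), G6pc (-0.21 without WT 5, and -0.21 to 0.35 over all libraries left out), Gltscr2 (0.17), Fam76a (0.21) and Slc31a1 (0.0765) with equal totals and Fam76a (0.0444) among males alone; the cause was not tested. The replicate numbers share no stated origin, and same-numbered libraries correlated at 0.229, 0.0823, -0.184 and 0.113, with 1 of 4 closest to its own number. With a replicate block over 8 libraries, 2 genes were higher and 5 lower, G6pc was -0.21, and the isozyme ratios differed by 3.56 and 3.47 (adjusted exact p = 0.25, where none can be below 0.125 unadjusted). Gys1, at 46.7 reads, is the least deeply covered of the 9 genes.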
